A study of Mus musculus with 30 samples.

Results

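Splicing regulators of restricted tissue distribution, 10 genes in all, were followed through 5 tissues of adult C57BL/6 mice. They were Rbfox1, Rbfox2 and Rbfox3, known from neurons and in part other tissues, and Nova1, Nova2 and Srrm4, known mainly from neurons. The others were Esrp1 and Esrp2, known from epithelia, and Rbm20 and Rbm24, known from striated muscle. These 10 of the 48709 genes in the count tables were chosen by name for their known distribution, and each was found by its gene identifier. The study compared wild-type (WT) mice with mice heterozygous for Ctcf (Ctcf+/-), which keep 1 functional copy of Ctcf, the gene of an architectural DNA-binding protein that anchors chromatin loops, and its title concerns intron retention. Each genotype had 3 RNA-seq libraries per tissue, from brain, kidney, liver, spleen and the quadriceps femoris muscle, which makes 30 libraries. The same heterozygous genotype was used in every tissue, and the labels name no other allele or treatment.

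Splicing regulators of this kind bind short sequence elements in introns and exons of pre-mRNA and raise or lower the use of nearby exons. Where a regulator is made therefore helps to set in which cells its target exons are used or skipped. Neuronal, epithelial and muscle exon programmes are the classic cases. Rbfox proteins bind GCAUG elements through a single RNA recognition motif, Nova proteins bind YCAY clusters through KH domains, Srrm4 promotes the inclusion of neuronal microexons, Esrp proteins control the epithelial isoforms of genes such as Fgfr2 and Cd44, and Rbm20 and Rbm24 act on sarcomere transcripts, Ttn among them. The values here are counts of RNA fragments over whole genes, so they report how much mRNA of each regulator was present and not its splicing activity or the splicing of its targets.

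RefSeq promoter sequence was matched for 6 of the 10 genes, with 7 start sites in all, and each window was the 250 bases before the start on GRCm38.p6. The windows of 3 genes are shown: Nova1, whose kidney libraries did not overlap between the genotypes, Srrm4, which had a level in liver beside that in brain, and Rbm24, which made up most of the muscle pair. Capitals mark the E-box, CANNTG, a pattern that is its own reverse complement, and lower case marks all other bases.
Nova1, chr12:46818768-46819017, minus strand: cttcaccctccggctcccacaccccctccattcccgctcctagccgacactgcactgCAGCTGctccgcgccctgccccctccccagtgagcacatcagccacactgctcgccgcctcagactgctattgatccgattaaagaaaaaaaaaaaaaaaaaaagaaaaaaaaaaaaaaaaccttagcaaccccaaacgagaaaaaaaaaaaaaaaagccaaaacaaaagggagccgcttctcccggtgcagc
Srrm4, chr5:116591818-116592067, minus strand: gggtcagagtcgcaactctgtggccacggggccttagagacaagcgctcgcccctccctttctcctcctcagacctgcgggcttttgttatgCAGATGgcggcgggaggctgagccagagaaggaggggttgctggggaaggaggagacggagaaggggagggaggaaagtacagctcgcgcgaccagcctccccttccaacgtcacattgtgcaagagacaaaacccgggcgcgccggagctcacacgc
Rbm24, chr13:46418050-46418299, plus strand: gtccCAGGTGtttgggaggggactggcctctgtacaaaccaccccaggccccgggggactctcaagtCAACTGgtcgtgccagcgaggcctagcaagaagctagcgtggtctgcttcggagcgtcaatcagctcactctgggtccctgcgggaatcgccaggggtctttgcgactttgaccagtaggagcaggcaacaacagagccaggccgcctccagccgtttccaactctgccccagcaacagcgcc
The Nova1 and Srrm4 windows held 1 E-box each, 193 and 158 bases before the start, and the Rbm24 window held 2, at 246 and 183 bases. An E-box was in 66.2% of the 32851 RefSeq promoter windows of the same length, so its presence sets none of these genes apart. The core consensus of the CTCF motif was searched on both strands. It was in 0.508% of all windows and in 0 of the 7 windows of these genes, which says only that these letters are not in those 250 bases. The GC content was 50% for Nova1, 63.2% for Srrm4 and 62.4% for Rbm24, beside a median of 52.4% over all windows.

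Depth ran from 49.8 M to 131.6 M counts per library, with tissue medians of 66.8 M to 97.0 M. Levels are in CPM, the fragments of a gene for each 1 M in the library after TMM scaling, and levels of different genes are compared per kilobase of exon (CPM per kb). Ctcf itself was lower in every heterozygous library than in every WT library of the same tissue. The WT and heterozygous means were 49.7 and 30.9 CPM for brain, 51.3 and 34.5 for muscle, 47.2 and 28.9 for kidney, 41.6 and 26.4 for liver, and 140.0 and 91.4 for spleen (2-sided exact permutation p = 0.1 in each tissue, the smallest that 3 against 3 libraries allow). In edgeR's quasi-likelihood fit of each tissue alone, the adjusted p of Ctcf was 0.0259 for brain and, in rising order, 0.107 for kidney, 0.250 for muscle, 0.543 for liver and 0.914 for spleen, and leaving out any 1 brain library took the brain value to between 0.1 and 0.292. Of 14 alternative settings per tissue, 7 called Ctcf for brain, 4 for kidney, 1 each for muscle and spleen and 0 for liver. In kidney, edgeR with the replicate number as a block gave an adjusted p of 0.0440, edgeR without the heterozygous library of replicate 3 gave 0.0364, and DESeq2 gave 4.29e-07. The edgeR test shared by tissues gave Ctcf an adjusted p of 4.00e-07. Over 42 alternative settings of that test the adjusted p ran up to 0.0269. It takes the 30 libraries as independent, although tissues may come from the same mice. Several libraries held counts of genes that mark other tissues. The WT liver library of replicate 3 had brain genes, and the kidney libraries of replicate 3 in both genotypes had skeletal muscle genes. The WT muscle libraries had kidney tubule genes, and the WT spleen libraries had hepatocyte genes. The heterozygous spleen libraries had kidney tubule genes. These cases are not a complete list, and the source of the counts was not tested. In bulk tissue, fewer cells of a type and less RNA per cell cannot be told apart.

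The Rbfox genes encode a family of RNA-binding proteins with nearly the same target motif, and the tissues differed both in how much of the family they held and in which member made it up. Rbfox1 lies at chr16:6809222-7412479 on the plus strand. In WT muscle it had 324, 328 and 420 CPM, and in WT brain 196, 175 and 217 CPM. All muscle libraries were above all brain libraries, by 1.83-fold in the mean. This order held with TMM or DESeq2 scaling, and reversed with scaling to total counts, where brain was 1.23-fold above muscle and the groups overlapped. Kidney followed at 1.69 ± 0.103 CPM (SD, n = 3), which was 211-fold below muscle. In liver the values were 0.0461, 0.163 and 1.76 CPM, so 1 library of the group stood far above the other two. Spleen held 0, 1 and 2 counts, which puts muscle at least 13930-fold higher.

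Rbfox2, at chr15:77078990-77307053 on the minus strand, is the family member with the broadest known distribution, and its levels here covered 4 of the 5 tissues. Brain had 171, 177 and 179 CPM, muscle 60.3, 66.5 and 89.8, liver 42.8, 44.7 and 52.3 and kidney 19.0, 17.3 and 17.6. Each neighbour in this order was separate from the next, and brain was 2.43-fold above muscle. Spleen stood apart with 0.122, 0.202 and 0.134 CPM, 12 to 24 counts per library, 1152-fold below brain and 118-fold below kidney. The low spleen level was shared by all 6 spleen libraries, since the heterozygous ones had 14 to 32 counts.

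Rbfox3 encodes the nuclear antigen NeuN that is used to mark mature neurons. It lies at chr11:118489762-118911597 on the minus strand. WT brain had 187, 192 and 215 CPM, 105-fold above liver, which had 1.38, 1.17 and 3.12 CPM. Kidney followed with 0.412 to 0.536 CPM. Muscle held 2, 0 and 1 counts, so brain was at least 4068-fold higher. With TMM or DESeq2 scaling, muscle therefore held the most Rbfox1 of the 5 tissues while Rbfox3 was at the floor there, and with total counts brain held the most of both. Spleen, with 4 to 11 counts, overlapped muscle.

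Per kilobase of exon, the Rbfox genes summed to 105 ± 7.52 CPM per kb in WT brain and 95.9 ± 15.1 in WT muscle. Relative to total counts, the TMM-based scale multiplied levels by 0.723 in brain and by 1.61 in muscle. With total counts, brain would therefore stand further above muscle. Brain split its sum into 44.8% Rbfox1, 22.8% Rbfox2 and 32.4% Rbfox3. Muscle split its sum into 89.8% Rbfox1 and 10.2% Rbfox2. Liver held 6.82 and kidney 2.93 CPM per kb, of which Rbfox2 was 93.4% and 83.2%. The sum in spleen was 0.033 CPM per kb. The family thus had 3 members in quantity in brain, 2 in muscle and mainly Rbfox2 in liver and kidney. The heterozygous libraries had the same make-up, with Rbfox1 at 44.4% in brain and 90.2% in muscle.

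**Figure D1:**
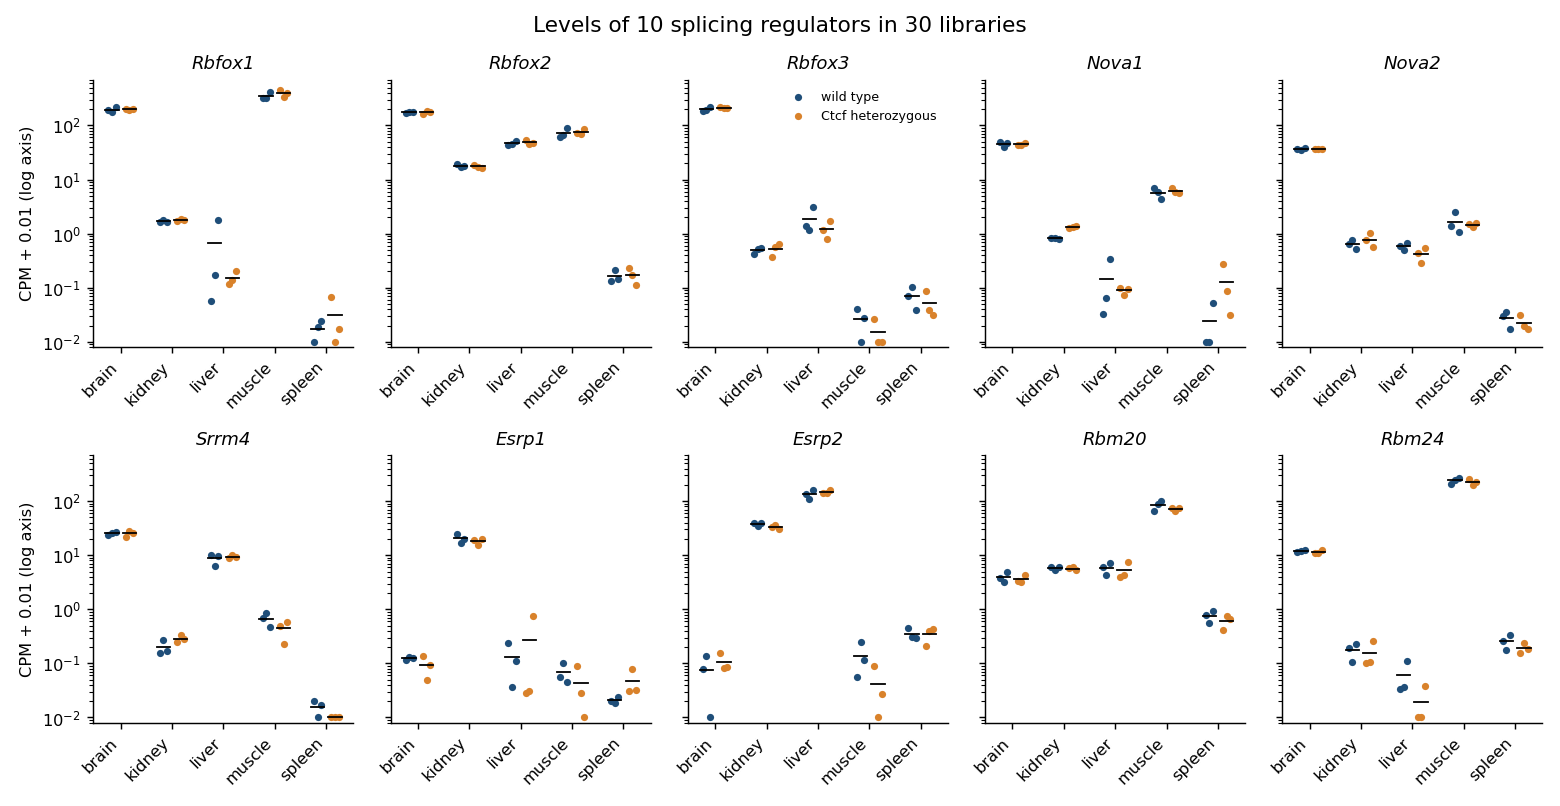
Levels of the 10 splicing regulators in each of the 30 libraries. Each panel is 1 gene, the y axis is CPM plus 0.01 on a log axis, the x axis gives the tissue, points are libraries (blue for WT, orange for Ctcf heterozygous) and black bars are group means. Blue and orange points lie together in nearly all tissues, Nova1 in kidney is the tested exception (0.768 to 0.833 against 1.24 to 1.34 CPM), and 1 blue liver point stands above the others for Rbfox1, Rbfox3 and Nova1.

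Nova1 and Nova2 encode KH-domain proteins that are known for the splicing of synaptic transcripts and as target antigens in a paraneoplastic movement disorder. Nova1 lies at chr12:46694517-46818775 on the minus strand and Nova2 at chr7:18925888-18965319 on the plus strand. Nova1 had 49.5, 40.7 and 46.6 CPM in WT brain and 6.87, 5.95 and 4.32 in WT muscle, so brain was 7.98-fold higher and the groups were separate. Kidney had 0.768 to 0.833 CPM. Liver had 1, 2 and 13 counts and spleen 0, 0 and 6, and these tissues overlapped.

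Nova2 in WT brain had 36.4, 35.1 and 37.6 CPM, 22.5-fold above muscle, which had 1.34, 2.46 and 1.04 CPM. Kidney, at 0.52 to 0.762 CPM, and liver, at 0.488 to 0.665, overlapped. Exons of 2 other annotated genes cover 49.3% of the Nova2 exon bases, and fragments that lie over several genes were not counted, so its level is uncertain and per kilobase is a lower estimate. With that limit, the pair summed to 10.9 CPM per kb in brain, of which Nova1 was 59.9%. The muscle sum was 1.01 CPM per kb, with 81.2% Nova1. The pair therefore reached muscle mainly through Nova1.

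Srrm4, at chr5:116439275-116591817 on the minus strand, encodes nSR100, a serine- and arginine-rich factor that promotes neuronal microexons. Its WT brain levels were 24.2, 25.9 and 26.9 CPM. Liver came second, with 10.2, 6.43 and 9.59 CPM in the WT libraries and 8.83, 10.2 and 9.14 in the heterozygous ones. All 6 liver libraries were thus below brain and above every library of the remaining tissues. Brain was 2.94-fold above liver, and liver was 13.1-fold above muscle (0.665 ± 0.193 CPM) and 45.7-fold above kidney (0.191 ± 0.0646). Spleen held at most 1 count. An antisense gene, Srrm4os, overlaps 0.785% of the exon bases, and the counting did not use strand.

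The liver level of Srrm4 can be set beside neuron markers in the same libraries. Over 6 neuron markers (Snap25, Syt1, Slc17a7, Gad1, Gad2 and Map2, none at 0 in WT liver) the summed level was 4353 to 5426 CPM in WT brain and 19.5 to 26.2 CPM in 5 of the 6 liver libraries. Syt1 made up much of the liver sum, with 769 to 1258 counts per library, while Snap25 had 21 to 55 counts in those 5. The WT liver library of replicate 3 differed: its neuron markers summed to 71.2 CPM, and it had 690 counts of Snap25. In this library Rbfox1 had 69 counts against 2 to 7 in the other 5, Rbfox3 122 against 37 to 63, and Nova1 13 against 1 to 5. Srrm4 did not follow, with 375 counts against 237 to 488. Srrm4 was thus present in the liver libraries with 19.5 to 26.2 CPM of neuron markers and in the library with 71.2. For Srrm4, Rbfox1, Rbfox3 and Nova1 the part of brain RNA in the liver level was not tested. Without this library, WT liver Rbfox1 lay at 0.0461 and 0.163 CPM, below every kidney library, while Rbfox3 in liver, at 1.17 and 1.38, was still above kidney.

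**Figure D2:**
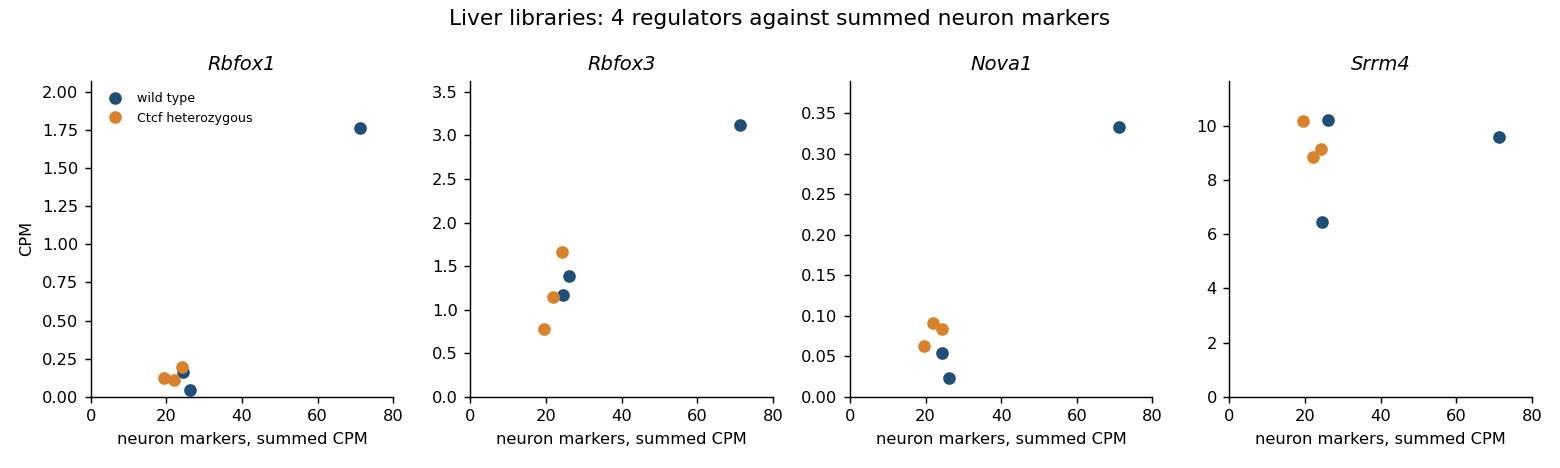
Liver libraries, with the summed level of 6 neuron markers on the x axis (CPM) and the level of 1 regulator on the y axis (CPM, linear, starting at 0). Blue points are WT and orange points Ctcf heterozygous libraries, and the WT library of replicate 3 at 71.2 CPM of neuron markers is highest for Rbfox1, Rbfox3 and Nova1 but within the others for Srrm4.

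Esrp1 and Esrp2 encode epithelial splicing regulators, and the epithelial organs divided them unevenly. Esrp1 lies at chr4:11331933-11386783 and Esrp2 at chr8:106130319-106136974, both on the minus strand. Esrp2 lies 447397 bases from Ctcf, and the part of this nearness in its genotype values was not tested. Esrp1 was found in kidney, with 24.3, 17.2 and 20.02 CPM in the WT libraries, 171-fold above liver at 0.0271 to 0.23 CPM. WT brain and muscle had 2 to 12 counts and spleen 1 or 2, so kidney was at least 799.5-fold above spleen. Esrp2 was highest in liver, with 134, 108 and 162 CPM, and second in kidney, with 40.3, 34.1 and 38.7 CPM. The difference between liver and kidney was 3.58-fold with the groups separate. Spleen had 0.282 to 0.449 CPM, and muscle and brain, with 0 to 15 counts, overlapped.

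In WT kidney the 2 Esrp genes summed to 11.9 ± 1.29 CPM per kb, 27.1% of it Esrp1. In WT liver they summed to 31.1 ± 6.26 CPM per kb, 99.9% of it Esrp2. Liver thus had more of the pair than kidney but nearly none of Esrp1. Markers of epithelium, Epcam, Cdh1, Cdh16, Krt8, Krt18, Krt19 and Grhl2, summed to 1304 to 1456 CPM in WT kidney, 481 to 645 in liver and 2.03 to 7.80 in the other 3 tissues. Other annotated exons overlap 7.79% of the Esrp2 and 2.01% of the Esrp1 exon bases. One heterozygous liver library, replicate 3, had 27 counts of Esrp1 against 1 to 10 in the other 5. It also had 730 counts of Krt19, a bile duct keratin, against 54 to 100. Another bile duct marker, Krt7, was highest there too, at 4.30 CPM against 1.59 to 2.63. Sox9 and Spp1, also bile duct markers, were not. Sox9 had 2.67 CPM against 1.79 to 4.03, and Spp1 had 29.5 against 24.6 to 52.7. Whether duct tissue takes part in that Esrp1 value was not tested.

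Rbm20 and Rbm24 are the muscle regulators. Rbm20, whose loss alters titin isoforms and causes cardiomyopathy, lies at chr19:53677306-53867080 on the plus strand. In WT muscle it had 65.3, 90.2 and 101.4 CPM, 14.5-fold above kidney. Kidney (5.34 to 6.17 CPM), liver (4.26 to 7.08) and brain (3.12 to 4.89) overlapped as neighbours, and spleen was lower at 0.555 to 0.915. Rbm20 was therefore high in muscle over a low level in 4 tissues. No exon of another gene overlaps it.

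Rbm24, which promotes muscle exon inclusion in development, lies at chr13:46418300-46431090 on the plus strand. WT muscle had 207, 247 and 271 CPM, 20.3-fold above brain at 11.6, 11.8 and 12.3 CPM. Spleen (0.168 to 0.324 CPM) and kidney (0.0974 to 0.216) overlapped, and liver had 1 to 4 counts. Per kilobase, Rbm24 was 85.7% of the pair's 87.7 CPM per kb in muscle and 86.5% of 4.28 in brain. In kidney, by contrast, Rbm20 was 94.5% of 0.919 CPM per kb. The kidney libraries of replicate 3 had the highest Rbm24 counts of the tissue, 27 (WT) and 31 (heterozygous) against 10 to 22, and the highest skeletal muscle markers, 99.3 and 123 summed CPM against 5.66 to 8.24. The part of muscle RNA in those Rbm24 values was not tested.

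**Figure D3:**
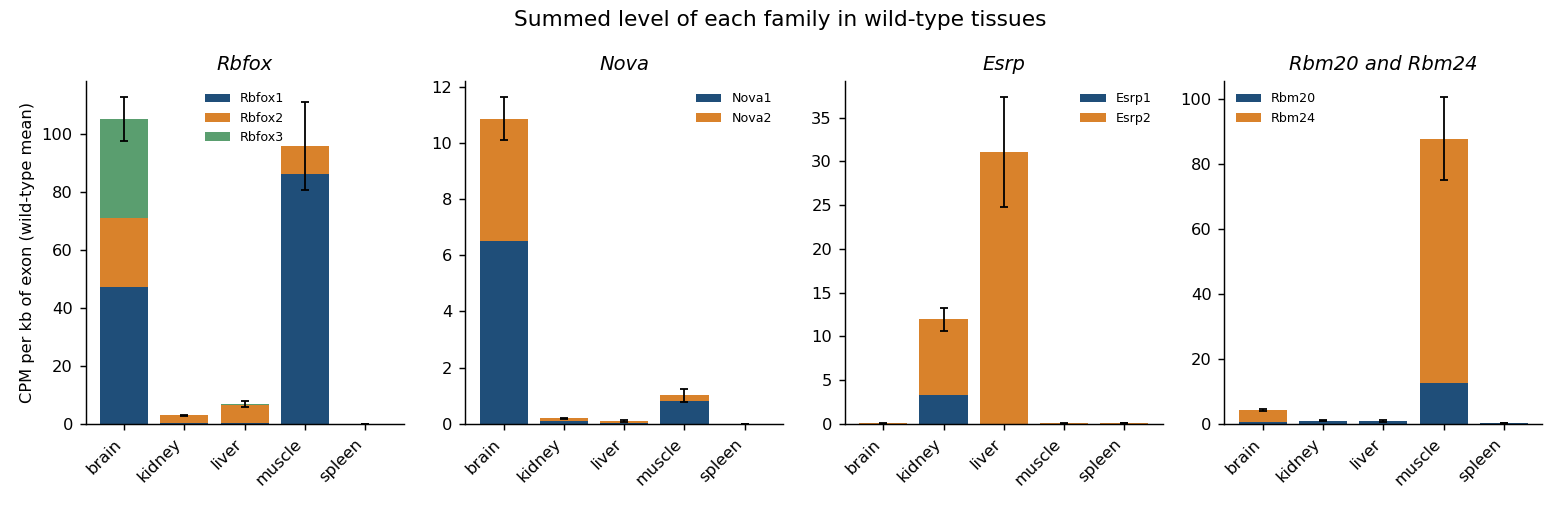
Summed level of each gene group in the WT libraries of each tissue, in CPM per kb of exon on linear axes that differ between panels. Bars stack the mean of each member, and error bars are the SD of the sum over 3 libraries. On the TMM scale the Rbfox bar is of like height in brain (105) and muscle (95.9) but differs in make-up, and the Esrp bar is all Esrp2 in liver.

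Taking the 10 genes at once, the WT libraries of the highest tissue lay above all other WT libraries for 10 of 10 genes, and for 9 with scaling to total counts, where Rbfox1 was the exception. The highest tissue was brain for Rbfox2, Rbfox3, Nova1, Nova2 and Srrm4, muscle for Rbfox1 (brain with total counts), Rbm20 and Rbm24, kidney for Esrp1 and liver for Esrp2. The heterozygous libraries gave 10 of 10 with the same tissues. Spleen was the highest tissue for none. Since the genes were listed for such patterns, these levels are a description and carry no test. The share of all genes with such a highest tissue was not counted, so the 10 of 10 has no background beside it. Scaling matters for folds between tissues: relative to total counts, the TMM-based scale multiplied levels by 1.61 in muscle and 1.56 in liver, and by 0.786 in kidney, 0.723 in brain and 0.700 in spleen. With total counts the brain to liver fold of Srrm4 was 6.44, the brain to muscle fold of Rbfox2 5.47, the liver to kidney fold of Esrp2 1.78, the muscle to kidney fold of Rbm20 7.05 and the muscle to brain fold of Rbm24 9.05.

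Genes with the most similar pattern were sought by Pearson correlation of log2(CPM + 0.5) over the 15 WT libraries, among named genes with at least 1 CPM in the regulator's highest tissue. The libraries share depth and tissue, and with 5 tissues many genes reach high values, so the r values are descriptions. For Srrm4 the nearest were Necab1 (r = 0.989), Fam19a2 (0.988) and Hapln4 (0.983). Each of these was also high in brain and second in liver, Necab1 with 81.8 and 34.9 CPM, Fam19a2 with 39.0 and 10.1, and Hapln4 with 84.7 and 15.2, and each was under 0.4 CPM in the remaining tissues. For Rbfox1, high in both muscle and brain, the nearest were Wnk2 (0.997), Tceal5 (0.996) and Dusp26 (0.995). Rbfox2 was nearest to Plekhb1 (0.996), Eda and Rusc2, and Rbfox3 to Chrm1 (0.996), Cntn2 and Cdh18. For the Nova genes they were Susd5 (0.994), Cfap54 and Car11 beside Nova1, and Coro2b (0.995), Nlgn2 and Rps6kl1 beside Nova2. Esrp1 was nearest to Lrrc66 (0.998), Ttll10 and Kcne1, and Esrp2 to Abcc2 (0.999), Epha1 and Dnajc22. Rbm20 was nearest to Cfl2 (0.992), Gapdh and Prune1, and Rbm24 to Ppp1r14c (0.997), Chodl and Cst6.

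The 10 genes stand among other tissue-biased splicing regulators, of which 27 were listed. The listed gene with the highest WT level per kilobase was Celf4 in brain (75.4 ± 7.06 CPM per kb), Rbpms2 in kidney (57.0 ± 5.20) and liver (51.2 ± 10.8), and Rbm38 in muscle (65.8 ± 2.56) and spleen (78.7 ± 33.2). Spleen thus had a strongly represented regulator on this list although none of the 10 was high there. On a list of 20 genes whose transcripts the 10 regulators are known to splice, the highest were Grin1, an NMDA receptor subunit, in brain (23.2 CPM per kb), Agrn in kidney (14.0), Gphn in liver (28.4), Ldb3, a Z-disc protein, in muscle (547.5) and Cd44 in spleen (13.6). Rest, the repressor of neuronal genes whose transcript Srrm4 splices, had 0.553 CPM per kb in brain and 2.32 to 6.94 in the other tissues.

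Between the genotypes, none of the 10 genes was called in any tissue at an adjusted p under 0.05. In edgeR's quasi-likelihood fits, the filter on low counts was passed by 10 of the 10 in kidney, 9 in brain, 7 in muscle, 6 in liver and 4 in spleen. The count called was 0 in each, beside 0.242% of all tested genes in spleen, 0.0249% in muscle, 0.0211% in kidney, 0.0193% in liver and 0.0157% in brain. Since so few genes of any kind were called, 0 of at most 10 is near the background. At an unadjusted p under 0.05 there was 1 of these genes in kidney, beside 6.44% of all genes, and 0 in the other tissues, beside 2.96% in brain, 6.45% in muscle, 4.56% in liver and 3.52% in spleen. DESeq2 called 0 in every tissue. Esrp2 was not tested in brain, nor Esrp1, Nova1, Rbfox1 and Rbm24 in liver, Esrp1, Esrp2 and Rbfox3 in muscle, or Esrp1, Nova1, Nova2, Rbfox1, Rbfox3 and Srrm4 in spleen.

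For the Rbfox and Nova genes, Srrm4 and Rbm24, brain gave narrower intervals than any other tissue in which they were tested. The heterozygous libraries had 198, 197 and 204 CPM of Rbfox1, within the WT range of 175 to 217, and the fitted difference was 0.03 on the log2 scale with a 95% confidence interval of -10.4% to 16.0%. Rbfox2 had an interval of -10.0% to 10.5%, Nova2 of -7.11% to 11.8%, Nova1 of -13.5% to 13.2%, Srrm4 of -15.1% to 16.8% and Rbm24 of -15.4% to 10.3%. For Rbfox3 the heterozygous libraries had 215, 209 and 213 CPM against 187, 192 and 215, and the interval was -3.73% to 19.2%. The groups overlapped for every tested regulator in brain. Rbm20, at a lower level, had an interval of -31.6% to 25.4%, and Esrp1, at 0.113 and 0.0833 CPM in the WT and heterozygous means, of -67.4% to 42.9%. Over the 9 tested genes the median log2 fold change was -0.01, beside 0.00 over all genes, with 3 fitted higher and 6 lower.

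In muscle the regulators that lead there also overlapped between the genotypes. Rbfox1 had 451, 338 and 399 CPM in the heterozygous libraries (interval -12.4% to 40.1%) and Rbm24 had 255, 196 and 226 (interval -24.9% to 16.2%). Rbm20 had 75.9, 66.6 and 73.9 CPM, inside a WT range that ran from 65.3 to 101.4, and edgeR fitted a log2 difference of -0.25 with an SE of 0.16 and an adjusted p of 0.887. Without the WT muscle library of replicate 1, which was the lowest, it was -0.41 with an edgeR adjusted p of 0.554. Without that of replicate 3, the highest in WT, it was -0.11. Over the 7 tested genes the median was -0.10, beside -0.01 over all genes. Esrp2 was too low to test, with 3, 15 and 6 counts in WT muscle and 5, 0 and 1 in heterozygous muscle. Kidney tubule markers in those libraries summed to 5.39, 34.3 and 5.68 CPM and to 0.238, 0.204 and 2.20 CPM, and WT replicate 2 was the highest in both. Their part in the Esrp2 counts was not tested.

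In liver, Esrp2 had 141, 144 and 158 CPM in the heterozygous libraries, with an interval of -15.1% to 41.7%. Srrm4 had an interval of -22.0% to 47.5% and Rbfox2 of -14.5% to 28.1%, and all groups overlapped. For Rbfox3 edgeR fitted a log2 difference of -0.67 with an SE of 0.45 and an adjusted p of 1.0. Without the WT library of replicate 3 it was -0.10. The median over the 6 tested genes was -0.05, beside -0.01 over all genes. In spleen only Rbfox2, Esrp2, Rbm20 and Rbm24 could be tested, all below 1 CPM, with fold changes between -0.42 and 0.10 and a median of -0.17, beside 0.00 over all genes. Their intervals reached -60.5% and 118%, so changes within that span were not resolved with these libraries. Nova1 in spleen had 37, 8 and 3 counts in the heterozygous libraries and 0, 0 and 6 in WT, and neuron markers in the library with 37 counts summed to 3.85 CPM, inside the 2.89 to 6.59 of the other 5. Esrp1 in spleen had 3, 7 and 3 counts against 1, 1 and 2, which did not overlap but were at or near the floor of 3 counts. The kidney tubule markers Umod, Slc12a1, Slc12a3, Aqp2 and Lrp2 did not overlap either, at 0.673 to 1.48 summed CPM in WT and 4.29 to 7.24 in heterozygous spleen. Of these, Umod had 0 counts in each WT library and 158, 232 and 290 in the heterozygous ones, and Aqp2 was also at 0 in WT. The hepatocyte markers Alb, Ahsg and Apoa1 summed to 20.3 to 26.1 CPM in WT and 0.0140 to 0.0771 in heterozygous spleen, where Ahsg was at 0. The part of kidney or liver RNA in the spleen values of Esrp1 and Esrp2 was not tested. For Nova1 in spleen, the source of the counts was not tested either.

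**Figure D4:**
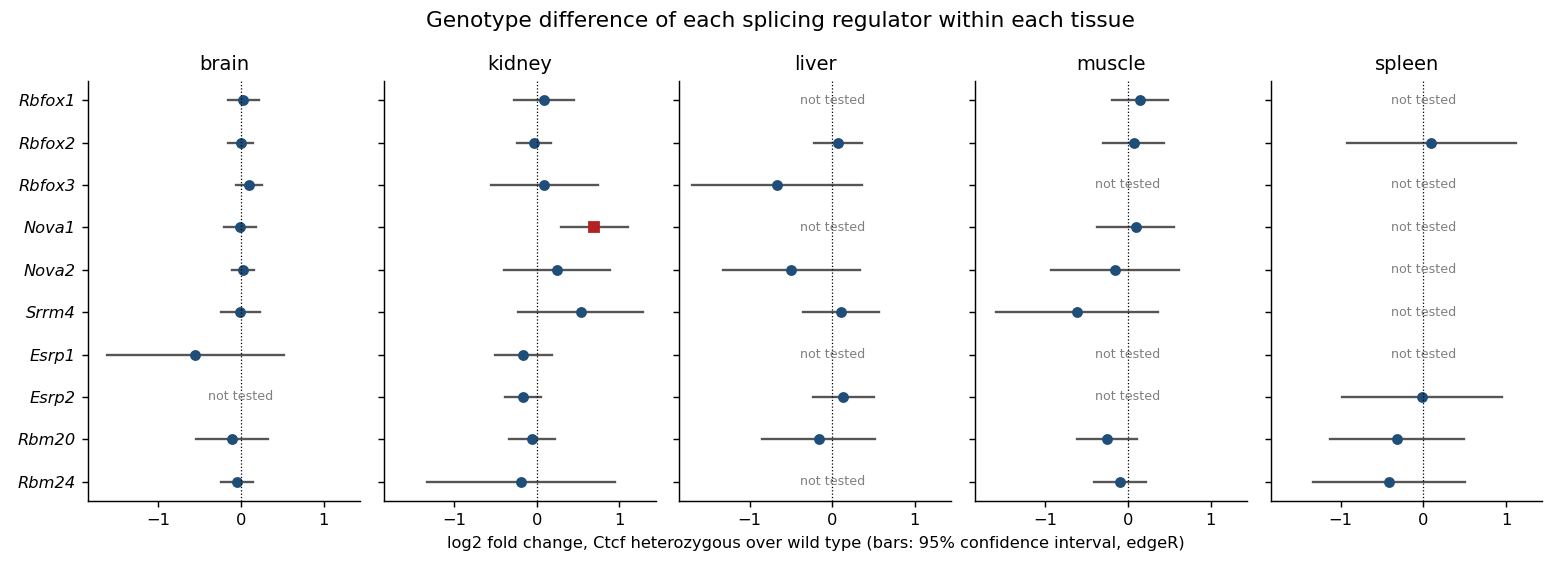
Fitted log2 fold change of each regulator, heterozygous over WT, in each tissue (edgeR, 6 libraries per tissue). Points are estimates and bars 95% confidence intervals. The red square marks Nova1 in kidney, at 0.70 the only tested gene whose WT and heterozygous libraries did not overlap, and genes below the count filter are written as not tested.

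Kidney held the 1 tested gene whose libraries did not overlap between the genotypes, Nova1. The WT libraries had 101, 91 and 96 counts, or 0.833, 0.806 and 0.768 CPM, and the heterozygous libraries 149, 141 and 169 counts, or 1.24, 1.33 and 1.34 CPM. All 3 heterozygous libraries were above all 3 WT libraries. The fitted log2 difference was 0.70 (SE 0.18) with an interval of 22.3% to 115%, at an unadjusted p of 0.00405 and an edgeR adjusted p of 0.431, so it was not called. It stayed between 0.67 and 0.73 over 14 alternative settings, with adjusted p from 0.102 in DESeq2 to 1.0 in the fit of all 30 libraries. A count of 1 in 10 is near the background here, since 11.4% of all genes tested in kidney had groups that did not overlap. In the other tissues 0 tested regulators did so, beside 7.83% of genes in brain, 8.99% in liver, 12.2% in muscle and 6.64% in spleen.

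Of 16 marker lists, the summed level in kidney was higher without overlap in the heterozygous libraries for 2, lower for 1 and overlapping for the rest. Neuron markers summed to 9.96 to 12.1 CPM in WT and 9.80 to 10.4 in heterozygous kidney. The markers Krt7, Krt19, Sox9 and Spp1 summed to 1351 to 1454 CPM in WT and 1755 to 1981 in heterozygous kidney. Spp1 made up most of that sum, with 1222 to 1304 and 1641 to 1875 CPM, while Krt19 went the other way without overlap, with 15.3 to 19.5 CPM in WT and 8.56 to 11.8 in heterozygous kidney. Krt7 overlapped, and Sox9 was below 1 CPM. None of these genes was at 0 in WT kidney. The part of differing cell content in the Nova1 value was not tested. The other kidney regulators overlapped between the genotypes: Esrp1 had 19.5, 15.3 and 20.3 CPM in heterozygous kidney (interval -29.6% to 13.8%), Esrp2 33.9, 35.6 and 31.1 (interval -23.4% to 3.36%), and Rbfox2 18.9, 17.2 and 16.6 (interval -15.1% to 12.5%). Over the 10 genes the median log2 fold change was 0.03, beside 0.00 over all genes.

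Across tissues, a fit of all 30 libraries asked for a genotype effect shared by the 5 tissues and for one that differed between them. It called 0 of the 10 genes in either test, beside 0.194% of 24262 genes for the shared effect and 0.758% for the difference. The smallest edgeR p among the 10 was 0.104 for the shared effect, for Nova1, with an adjusted p of 1.0, and 0 were under 0.05 unadjusted, beside 5.91% of genes. For the difference between tissues it was 0.034, also for Nova1, with an edgeR adjusted p of 0.654 and a range of 0.178 to 1.0 over 40 alternatives. It was the 1 gene of the 10 under 0.05 unadjusted, beside 6.66% of genes. Srrm4 had 0.0503 (adjusted 0.752) and Rbfox1 0.0638 (adjusted 0.823) in the same edgeR test. These p-values take the 30 libraries as independent, although tissues may come from the same mice. For Nova1, Rbfox1 and Srrm4 they also draw on spleen, where these genes failed the count filter of the tissue fit. For Nova1 and Rbfox1 the same holds for liver.

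The same held for the surrounding lists. Of the other tissue-biased splicing regulators, 27 of 27 were tested in brain, 22 in kidney, 21 in spleen and 18 each in liver and muscle, and edgeR called 0 in each direction in each tissue. The unadjusted p was under 0.05 for 1 gene each in kidney, liver and spleen, and for 0 in brain and muscle, and DESeq2 called 0. Of the genes whose transcripts the 10 regulators are known to splice, 20 of 20 were tested in brain, 17 in kidney, 14 in muscle, 13 in spleen and 11 in liver, with 0 called by edgeR and list medians between -0.02 and 0.07. DESeq2 called 1 of them, Unc13b in liver, which encodes the synaptic vesicle priming factor Munc13-2 and is on the list for its splicing by Srrm4. Unc13b is named after its values were seen. It had 7.35, 5.18 and 9.54 CPM in WT liver and 24.2, 21.0 and 19.8 in heterozygous liver, with no overlap. Its log2 fold change was 1.56 (SE 0.22) with an adjusted p of 0.136 in edgeR, 8.45e-08 in DESeq2, 0.0111 in edgeR without the filter on low counts and 2.95e-04 in the edgeR fit of all 30 libraries. In spleen it was 0.96 with an edgeR adjusted p of 1.0, and 0.93 with 0.0378 in the edgeR fit of all 30 libraries. Of 14 alternative settings per tissue, only 3 called Unc13b for liver and 1 for spleen. In liver, limma-voom gave an adjusted p of 0.0935, and edgeR fits that left out 1 library gave 0.0987 to 0.699. Srrm4 itself had overlapping liver groups, as given above, and the gene count of Unc13b does not report the use of its exons.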

How the data were processed

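RNA-seq of 30 libraries was used, 3 WT and 3 Ctcf heterozygous in each of 5 tissues, grouped by the sample titles. The authors deposited raw counts of fragments per gene, made with featureCounts 1.5.0-p3 on the exons of Ensembl release 86 (GRCm38) without regard to strand, per the file headers. The submitters' processing notes name FastQC, STAR and DESeq2, and versions and the read length are not given in the sources used here. Fragments over several genes were left out, per the command in the file headers, so genes with overlapping exons are undercounted. The fragments carried no molecular identifiers, so floors of 3 counts cover counting error only. The labels number the replicates 1 to 3 in each group and the design text speaks of 3 mice per genotype, so p-values measure the spread between these libraries.

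Symbols came from the gene identifiers (48349 of 48709 matched). Counts were fitted per tissue with edgeR 4.0.16 in R 4.3.3 (filterByExpr, TMM, quasi-likelihood F-test, Benjamini-Hochberg adjustment over all genes of the tissue, called under 0.05), and checked on simulated counts. Printed CPM use TMM within each tissue and the mean TMM factor of each tissue between tissues, a scale chosen after seeing the data so that levels and fits had the same basis. The count of genes whose highest tissue stands apart used TMM over all 30 libraries, and both scales gave 10. Intervals are at 95%, with n = 3 and SD unless stated. The alternatives were DESeq2 1.42.0, limma-voom (limma 3.58.1), other scalings and filters, a fit of all 30 libraries, a replicate block, and leaving out each library or tissue. Same-numbered libraries of the 2 genotypes deviated together in brain (r of 0.207, 0.383 and 0.537) and kidney (0.209, 0.190 and 0.212). The r values were also positive in muscle (0.0829, 0.183 and 0.271) and liver (0.0512, 0.118 and 0.277). In spleen they differed in sign (-0.472, -0.227 and 0.475). The reported fits did not take the numbers as pairs, and the replicate block among the alternatives did. Named genes were the 10 regulators, Ctcf, any list gene called, the highest gene of each list and tissue, the 3 genes of most similar pattern, and markers beside a result. Some marker results are not reported here. The regulators, gene lists and markers were chosen with earlier results of these data known. Promoters are RefSeq's on GRCm38.p6, and figures were drawn with matplotlib 3.10.9.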

Additional observations from a re-analysis of the deposited data

How the results depend on the processing

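None of the 10 regulators was called in any of the 7 comparisons (5 tissues, the shared effect and the difference between tissues) under any of 160 settings, the reported ones included. With the replicate number as a block, 0 were called in each tissue, for the shared effect and for the difference between tissues, and the block changed no call of the gene lists. Where the highest tissue stood apart for 10 of 10 genes, total counts gave 9 and the scale of the printed levels, added after seeing the data, gave 10. On the list of spliced transcripts, 1 gene in place of 0, Unc13b, was called in liver by DESeq2, by edgeR without the filter on low counts and by the edgeR fit of all 30 libraries, and in spleen by the edgeR fit of all 30 libraries. Of 36 fitted member by tissue fold changes, none called, 8 of 287 values that left out no library changed sign. Without the filter on low counts brain gave log2 fold changes of 0.012 for Rbfox2, 0.0017 for Nova1 and 0.0099 for Srrm4. With the fit of all 30 libraries brain gave 0.065 for Rbfox2, 0.053 for Nova1, 0.064 for Srrm4 and 0.018 for Rbm24. With total counts spleen gave 0.038 for Esrp2. Leaving out 1 library changed the sign of 16 fold changes. Their ranges in brain were -0.047 to 0.11 for Rbfox1, -0.044 to 0.052 for Rbfox2, -0.091 to 0.053 for Nova1, -0.090 to 0.093 for Srrm4 and -0.26 to 0.071 for Rbm20. In kidney they were -0.090 to 0.0088 for Rbfox2, -0.11 to 0.30 for Rbfox3 and -0.83 to 0.055 for Rbm24. In liver they were -0.076 to 0.23 for Srrm4, -0.0019 to 0.29 for Esrp2 and -0.50 to 0.0074 for Rbm20. In muscle they were -0.045 to 0.26 for Rbfox2, -0.069 to 0.25 for Nova1 and -0.39 to 0.28 for Nova2, and in spleen -0.21 to 0.35 for Rbfox2 and -0.24 to 0.26 for Esrp2. The cause of these changes was not tested beyond the setting itself. Depth limits the statements on genes under 1 CPM, above all in spleen.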
